A study of Homo sapiens with 8 samples.

Results

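The RAS-ERK feedback genes described here are HRAS and 9 genes whose transcription is known to follow ERK activity: the phosphatase genes DUSP1, DUSP4, DUSP5 and DUSP6, the Sprouty genes SPRY2 and SPRY4, the Spred genes SPRED1 and SPRED2, and the transcription factor gene ETV5. They were taken by symbol from a table of counts per Ensembl gene, so that these 10 genes are 10 of its 58233 rows. All 10 were measured in every library and passed the filter on low counts in every comparison. The lowest single value was 243 counts, for SPRY2 in an irradiated control library.

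RNA was sequenced from MCF10A-Hras cells, a human breast epithelial line that is not tumorigenic by itself and that carries the H-Ras oncogene in every group. Control cells and RBM6 knockout cells were left untreated or were collected 12 h after 5 Gy of X-ray ionizing radiation (IR). The knockout, RBM6-KO1, was a clone grown out from 1 sorted cell after CRISPR editing with a pair of guide RNAs and a Cas9 nickase. There were 4 groups of 2 biological replicates, A and B, and 8 libraries with 15355281 to 29832009 counts on genes. The growth medium held EGF, insulin, hydrocortisone, cholera toxin and horse serum in all 4 groups, and a difference between genotypes is a difference between the control line and 1 clone.

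RAS proteins pass signals from growth factor receptors such as the EGF receptor to the kinases RAF, MEK and ERK. Active ERK phosphorylates transcription factors, among them members of the ETS family, and so switches on genes whose products hold the pathway back. DUSP phosphatases remove the activating phosphates from ERK and related kinases, and Sprouty and Spred proteins act higher up, between the receptor and RAF.

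The 250 bases before a start site are shown for DUSP1, which rose after IR in both genotypes, and for SPRY2, one of the 2 genes of the group with an ETS motif there. The sequences are those of RefSeq on GRCh38.p14, where 7 of the 10 genes matched, with 10 start sites. DUSP4, DUSP5 and ETV5 did not match. Both genes lie on the minus strand, and the sequences are written 5′ to 3′ on that strand. In DUSP1 the capitals mark the cAMP response element (CRE, TGACGTCA) and the TATA box (TATAAA), and in SPRY2 they mark the ETS motif CCGGAA.
DUSP1, chr5:172771196-172771445: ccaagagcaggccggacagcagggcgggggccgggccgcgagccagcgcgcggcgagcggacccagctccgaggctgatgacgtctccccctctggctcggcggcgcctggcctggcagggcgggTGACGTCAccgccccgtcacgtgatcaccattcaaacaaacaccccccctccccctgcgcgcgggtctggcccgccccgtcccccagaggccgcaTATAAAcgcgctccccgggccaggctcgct
SPRY2, chr13:80341127-80341376: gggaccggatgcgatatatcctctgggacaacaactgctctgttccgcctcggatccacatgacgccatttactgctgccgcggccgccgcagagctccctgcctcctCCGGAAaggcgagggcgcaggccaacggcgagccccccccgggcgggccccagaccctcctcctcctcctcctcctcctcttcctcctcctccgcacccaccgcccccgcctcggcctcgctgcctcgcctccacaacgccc

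The CRE of DUSP1 began 125 bases before the start site and its TATA box 30 bases before it. The ETS motif of SPRY2 began 142 bases before the start site. Searched on both strands in 35116 promoter windows of this length, the CRE was present in 1.65%, the TATA box in 10.7% and CCGGAA in 14.5%. Among the 7 matched genes the CRE was found in DUSP1 alone, the TATA box in DUSP1 and SPRED2, and CCGGAA in HRAS and SPRY2. Counted by window, as the shares are, these were 1, 2 and 2 of the 10 start sites. The GC box GGGCGG, present in 42.6% of the windows, was found in 5 of the 10 start sites. Those belonged to DUSP1, HRAS, SPRED1, SPRY2 and SPRY4. Neither the AP-1 motif TGANTCA (6.57% of windows) nor the SRF CArG box (1.16%) was found in any of the 7. These are matches of letters and not measured binding sites.

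Levels of different genes were compared as normalised counts scaled to the library total (CPM, counts per 1000000) per kilobase of the main transcript in untreated control cells. HRAS was the most abundant of the 10 on this scale at 255 ± 3.33 (SD, n = 2), ahead of DUSP1 at 205 ± 14.5 and DUSP4 at 137 ± 3.55. DUSP6, which dephosphorylates ERK in the cytoplasm, followed at 40.4 ± 1.16. The remaining 6 lay between 22.8 for SPRY4 and 3.74 for SPRED1.

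NRAS, which encodes another RAS protein, was far below HRAS, at 11.6 ± 3.33 CPM per kilobase. ETV5 and NRAS overlapped between libraries, and the other neighbours among the 10 genes did not overlap in the 2 untreated control libraries. Divided by the length of all exons of a gene, HRAS stood at 112 and came second to DUSP1. Reads of the introduced H-Ras and of the cells' own HRAS gene cannot be told apart in these counts.

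**Figure D1:**
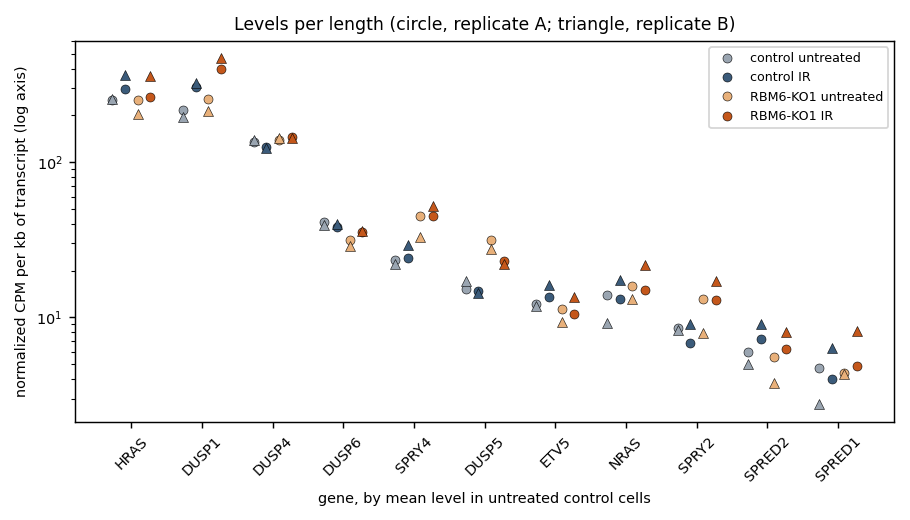
Level of each of the 10 genes, with NRAS for comparison, as normalised CPM per kilobase of the main transcript on a log axis, with 1 point per library and 4 groups of 2 libraries. HRAS, DUSP1 and DUSP4 stood at 124 or more in every library, and the highest value of any other gene was 52.3, for SPRY4.

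The 10 genes lie on 9 different autosomes. In GRCh38 coordinates of the GENCODE annotation, DUSP5 (ENSG00000138166, plus strand) spans chr10:110497907-110511533 and SPRY4 (ENSG00000187678, minus strand) spans chr5:142310427-142326455. DUSP1 (ENSG00000120129) lies on the minus strand of the same chromosome as SPRY4, at chr5:172768096-172771195. SPRY2 (ENSG00000136158) is at chr13:80335976-80341126 and DUSP6 (ENSG00000139318) at chr12:89347235-89352501, both on the minus strand. HRAS (ENSG00000174775) spans chr11:532242-537321, DUSP4 (ENSG00000120875) chr8:29333064-29350684, SPRED2 (ENSG00000198369) chr2:65310851-65432637 and ETV5 (ENSG00000244405) chr3:186046314-186110318, all on the minus strand. SPRED1 (ENSG00000166068) spans chr15:38252836-38357249 on the plus strand. DUSP6 shares 1105 exonic bases with an antisense non-coding RNA (ENSG00000274021), which had at most 4 counts in a library, and ETV5 shares 164 with DGKG, which had at most 16.

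Untreated RBM6-KO1 cells were compared with untreated control cells. DUSP5 and SPRY4 were higher in the knockout, 1.81-fold and 1.69-fold, and no other gene of the 10 passed the test. DUSP5 is a nuclear phosphatase that acts on ERK, and SPRY4 is an inhibitor of receptor signalling upstream of RAF. In bulk RNA of this kind, fewer cells expressing a gene and less of its RNA per cell cannot be told apart.

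DUSP5 had 37.9 and 42.4 CPM in the untreated control libraries and 78.2 and 68.2 CPM in the untreated knockout libraries. The groups did not overlap. The log2 fold change was 0.85 ± 0.16 (SE), with an adjusted p of 0.00254 by the quasi-likelihood test of edgeR, adjusted by the Benjamini-Hochberg method, which gave every adjusted p below.

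SPRY4 had 115 and 109 CPM in untreated control cells against 221 and 160.4 CPM in untreated knockout cells. Both knockout libraries were above both control libraries, although they differed from each other by 0.46 on the log2 scale. The log2 fold change was 0.76 ± 0.16 (SE, adjusted p = 0.00683, edgeR). Without control replicate B it was 0.73 and no longer passed (adjusted p = 0.0858, edgeR). Without knockout replicate A, the higher of the knockout libraries, it was 0.49 (adjusted p = 0.0259, edgeR).

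DUSP6 had 149.5 and 144 CPM in untreated control cells and 115 and 105 CPM in untreated knockout cells. The knockout libraries were both lower, but the difference did not pass the test, with a log2 fold change of -0.43 (95% interval -0.72 to -0.13, adjusted p = 0.0879, edgeR).

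Of the 10 genes, 0 passed the adjusted p under 0.05 together with a change of at least 2-fold, a rule that 3.12% of the 15556 genes tested passed in either direction. By the adjusted p alone, 2 of 10 passed, both higher, where 2.38% of all genes were higher and 6.12% passed in either direction. Groups that did not overlap were found for 5 of the 10 genes (2 higher, 3 lower in the knockout), and for 47.7% of all genes. The median log2 fold change of the 10 genes was 0.10, and that of all genes tested was 0.01. With 2 libraries against 2, an exact permutation test cannot go below p = 0.333, so that the edgeR values rest on a spread estimated across genes.

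The remaining 7 genes had adjusted p-values of 0.493 or more (edgeR). HRAS had 270.0 and 275 CPM in control cells and 269 and 219 CPM in knockout cells (log2 fold change -0.17, 95% interval -0.48 to 0.13). DUSP4, a nuclear phosphatase, was the steadiest of the group, with 746 and 774 CPM in control cells and 773 and 791 CPM in knockout cells (0.03, -0.26 to 0.31). SPRY2 varied most within the knockout, at 30.2 and 18.2 CPM, around control values of 19.5 and 18.9 CPM (0.33, -0.14 to 0.80).

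**Figure D2:**
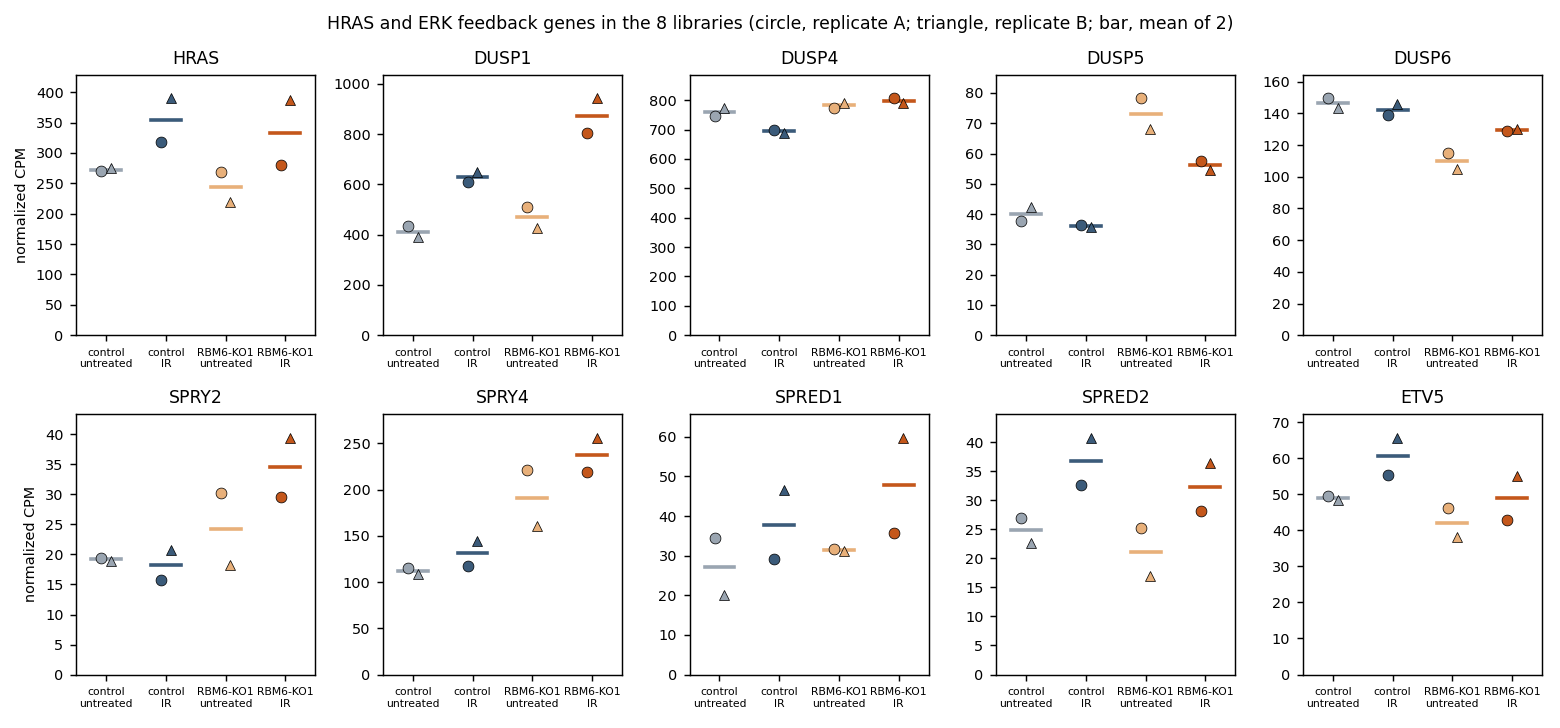
Normalised CPM of each of the 10 genes in all 8 libraries, with 1 point per library and a bar at the mean of each group of 2. DUSP5 and SPRY4 were higher in both knockout groups than in either control group, and DUSP1 was higher in both irradiated groups than in its untreated group.

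Irradiated RBM6-KO1 cells were compared with irradiated control cells. None of the 10 genes passed in this comparison by either rule in edgeR, where 1.17% of 15587 genes passed both criteria and 1.21% passed the adjusted p alone. At an unadjusted p under 0.05 there were 4 of 10 (DUSP1, DUSP5, SPRY2 and SPRY4), against 11.1% of all genes. DESeq2 called 2 of 10 by its adjusted p (SPRY2 and SPRY4), against 1.28% of 30123 genes. It was run without the edgeR filter on low counts, so that this share is over more genes than the others. Genes that DESeq2 left without an adjusted p counted as not passing, which can lower the share.

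SPRY4 had 118 and 144 CPM in irradiated control cells and 219 and 256 CPM in irradiated knockout cells. The groups did not overlap, and the log2 difference was 0.87 ± 0.17 (SE, 95% interval 0.46 to 1.28, adjusted p = 0.0804, edgeR). Leaving out control replicate B gave 1.01 (adjusted p = 0.0039, edgeR) and leaving out knockout replicate A gave 0.97 (adjusted p = 0.0435, edgeR). It was 0.72 without control replicate A (adjusted p = 0.104, edgeR) and 0.74 without knockout replicate B (adjusted p = 0.339, edgeR).

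SPRY2, the other Sprouty gene, had 15.7 and 20.8 CPM in irradiated control cells and 29.6 and 39.5 CPM in irradiated knockout cells. Both knockout libraries were above both control libraries. The log2 difference was 0.92 ± 0.24 (SE, 95% interval 0.36 to 1.47, adjusted p = 0.159, edgeR). Without control replicate B it was 1.13 (adjusted p = 0.00833, edgeR), and without any 1 of the other 3 libraries it ran from 0.69 to 1.11 and did not pass (adjusted p = 0.0682 to 0.615, edgeR).

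DUSP5 had 36.5 and 35.6 CPM in irradiated control cells and 57.5 and 54.7 CPM in irradiated knockout cells, again without overlap. Its log2 difference was 0.65 ± 0.17 (SE, 95% interval 0.26 to 1.03, adjusted p = 0.155, edgeR). DUSP1 had 609 and 649 CPM against 805 and 943 CPM, a log2 difference of 0.48 (95% interval 0.11 to 0.85, adjusted p = 0.286, edgeR).

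DUSP6 stood at 139 and 146 CPM in irradiated control cells and at 129 and 130.3 CPM in irradiated knockout cells. The knockout libraries were again the lower ones, by a log2 difference of -0.13 (95% interval -0.47 to 0.21, adjusted p = 0.862, edgeR). Across the 10 genes, 7 had groups that did not overlap (5 higher, 2 lower), against 38.7% of all genes.

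Averaged over untreated and irradiated cells in 1 fit of all 8 libraries, DUSP5 and SPRY4 were higher in RBM6-KO1 cells. This average shares its libraries with the 2 comparisons above and is not separate evidence. DUSP5 differed by 0.75 ± 0.10 (SE, adjusted p = 0.00119, edgeR) and SPRY4 by 0.81 ± 0.13 (SE, adjusted p = 0.0024, edgeR), both on the log2 scale. These were 2 of 10 genes by the adjusted p alone, where 8.68% of 16549 genes passed and 3.22% were higher. None of the 10 passed with a 2-fold change, as 3.40% of all genes did.

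Next in size of difference were SPRY2 at 0.62 (adjusted p = 0.0574, edgeR), DUSP1 at 0.33 (adjusted p = 0.0756, edgeR) and DUSP6 at -0.28 (adjusted p = 0.0867, edgeR). ETV5, an ETS family transcription factor, differed by -0.26 (adjusted p = 0.241, edgeR). Its 4 knockout libraries held 46.1, 38.2, 43.0 and 55.2 CPM, and its 4 control libraries 49.6, 48.4, 55.2 and 65.7 CPM.

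**Figure D3:**
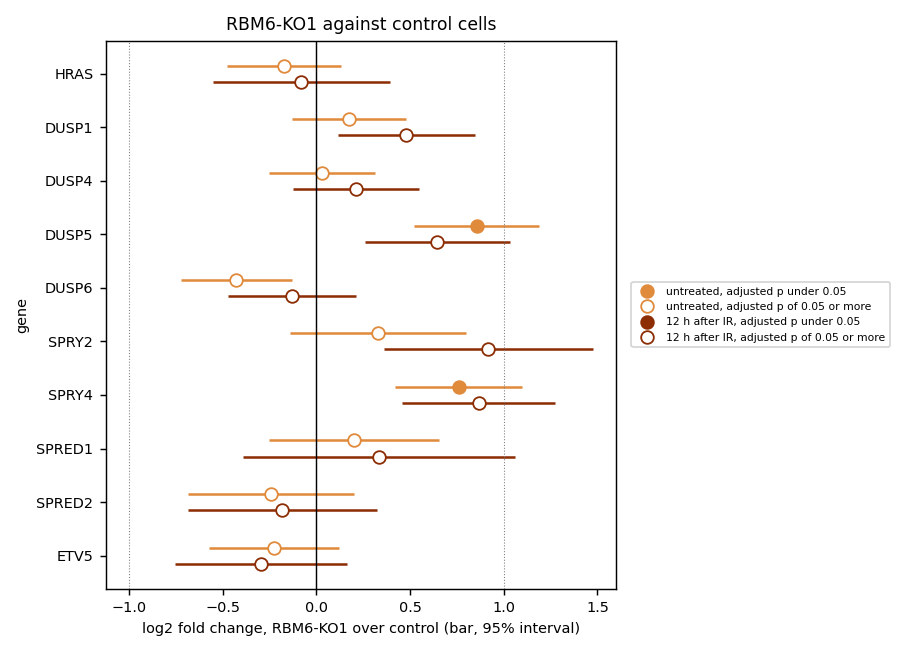
Log2 difference between RBM6-KO1 and control cells for each of the 10 genes, untreated and after IR, with points at the edgeR estimate and bars for the 95% interval. The intervals of DUSP5 and SPRY4 lay above 0 in both conditions, and that of DUSP6 lay below 0 in untreated cells.

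The response to IR was measured within each genotype. DUSP1 was the gene of the 10 that passed in both, 1.52-fold higher in control cells and 1.84-fold higher in RBM6-KO1 cells. DUSP1 is an immediate early gene whose product inactivates p38 and JNK as well as ERK.

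DUSP1 had 433 and 392 CPM in untreated control cells and 609 and 649 CPM in irradiated ones. It had 510.3 and 428 CPM in untreated knockout cells and 805 and 943 CPM in irradiated ones. Every irradiated library was above every untreated library, in both genotypes.

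The log2 fold change of DUSP1 was 0.60 ± 0.16 (SE, adjusted p = 0.0495, edgeR) in control cells and 0.88 ± 0.16 (SE, adjusted p = 0.0219, edgeR) in knockout cells. The call in control cells was near the threshold, and without either untreated control library it no longer passed (0.66, adjusted p = 0.276, and 0.53, adjusted p = 0.513, edgeR). It also missed the threshold with upper-quartile scaling (adjusted p = 0.0601) or a filter of 10 counts in every library (adjusted p = 0.0548). In knockout cells it no longer passed without untreated replicate B (0.77, adjusted p = 0.0523, edgeR).

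By the adjusted p alone, DUSP1 was the 1 of 10 genes that passed in each genotype, where 5.72% of 15412 genes passed in control cells (2.81% higher) and 5.67% of 15598 in knockout cells (2.44% higher). None of the 10 passed with a 2-fold change, against 3.59% and 3.11% of all genes. Non-overlapping groups were found for 7 of 10 genes in control cells (57.1% of all genes) and for 6 of 10 in knockout cells (62.1%).

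DUSP5 gave the largest negative values after IR in knockout cells, from 78.2 and 68.2 CPM to 57.5 and 54.7 CPM, without overlap. The log2 fold change of -0.40 (95% interval -0.75 to -0.05) did not pass (adjusted p = 0.125, edgeR). In control cells it was -0.17 (95% interval -0.57 to 0.24, adjusted p = 0.602, edgeR).

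Averaged over both genotypes in 1 fit of all 8 libraries, DUSP1, SPRED2 and HRAS were higher after IR. These were 3 of 10 genes by the adjusted p alone, where 28.4% of 16549 genes passed and 14.9% were higher. None of the 10 passed with a 2-fold change, against 7.07% of all genes. DUSP1 rose by 0.75 ± 0.10 (SE, adjusted p = 0.00153, edgeR) on the log2 scale.

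SPRED2, which restrains RAF activation by RAS, had 27.0 and 22.7 CPM in untreated and 32.6 and 40.8 CPM in irradiated control cells. In knockout cells it had 25.2 and 17.0 CPM untreated and 28.2 and 36.3 CPM irradiated. Irradiated libraries were above untreated ones in both genotypes. The average log2 change was 0.59 ± 0.16 (SE, adjusted p = 0.0232, edgeR), and it no longer passed without replicate B of any of the 4 groups (0.46 to 0.53, adjusted p = 0.0616 to 0.102, edgeR).

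HRAS had 318 and 390.03 CPM in irradiated control cells and 281 and 387 CPM in irradiated knockout cells, in each genotype above its untreated libraries. Its average log2 change was 0.42 ± 0.13 (SE, adjusted p = 0.0348, edgeR). This call was lost without untreated control replicate A or B or without replicate B of any other group (0.30 to 0.42, adjusted p = 0.0931 to 0.143, edgeR).

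SPRED1, the second Spred gene, had 34.4 and 20.0 CPM in untreated and 29.2 and 46.5 CPM in irradiated control cells, which overlapped. In knockout cells it had 31.7 and 31.2 CPM untreated and 35.6 and 59.8 CPM irradiated. Its average log2 change of 0.54 (95% interval 0.06 to 1.03) did not pass (adjusted p = 0.0842, edgeR). Its replicates differed by 0.78, 0.67 and 0.75 on the log2 scale in 3 of the 4 groups, replicate B being lower in untreated control cells and higher in both irradiated groups.

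Libraries also differed in trends on transcript length and GC content. Spearman's rho across 16417 genes between transcript length and the deviation of a gene from its mean was 0.43 in irradiated control replicate B and 0.37 in irradiated knockout replicate B. In the 6 other libraries it ran from -0.32 to -0.01. For GC content, rho was 0.15 and 0.46 in untreated and 0.26 and -0.20 in irradiated control libraries (A and B). In knockout libraries it was -0.09 and 0.07 untreated and -0.26 and -0.37 irradiated. The trends thus differed between genotypes as well as with IR. HRAS has a short, GC-rich transcript (1070 bases, 64.3% GC) and SPRED1 a long, GC-poor one (7270 bases, 36.3% GC). With trends on length and GC content removed, the average log2 change after IR was 0.89 for HRAS, 0.86 for DUSP1, 0.41 for SPRED2 and 0.36 for SPRED1.

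Whether the response to IR differed between the genotypes was tested by an interaction term over all 8 libraries. None of the 10 genes passed. Over all genes, 0 of 16549 passed by edgeR and 0 of 32842 by DESeq2. In edgeR 306 genes (1.85%), with 0 of these 10 among them, had an unadjusted p under 0.05. SPRY2 had the largest difference, 0.57 ± 0.36 on the log2 scale (95% interval -0.22 to 1.37). For DUSP1 it was 0.29 ± 0.20 (95% interval -0.16 to 0.74), so that a response stronger in the knockout by as much as 0.74 or weaker by 0.16 lay within the interval.

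Other genes of the pathway were followed in 4 lists. In untreated cells, 0 of 17 tested RAS proteins and regulators and 0 of 12 genes of the RAF-MEK-ERK cascade passed in edgeR. Of 14 other feedback inhibitors, 1 fell, ERRFI1, an inhibitor of the EGF receptor (-0.80, adjusted p = 0.0119, edgeR). Of 23 ERK target genes, 2 fell, the immediate early genes FOS (-1.23, adjusted p = 0.000338, edgeR) and EGR1 (-0.68, adjusted p = 0.0119, edgeR). Over all genes 6.12% passed in either direction. At an unadjusted p under 0.05 were 1 of 17 regulators and 1 of 12 cascade genes. So were 2 of 14 other feedback inhibitors and 10 of 23 targets, beside 18.4% of all genes.

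FOS had 37.8 and 35.9 CPM in untreated control cells and 16.6 and 15.1 CPM in untreated knockout cells. EGR1 had 166 and 178 CPM against 123 and 92.9 CPM. DUSP5 and SPRY4 were higher while FOS and EGR1 were lower in the same knockout libraries. After IR, 0 genes of the 4 lists passed between the genotypes by edgeR. At an unadjusted p under 0.05 were 1 of 17 regulators and 1 of 12 cascade genes. So were 2 of 14 other feedback inhibitors and 7 of 24 targets, beside 11.1% of all genes.

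Averaged over both conditions, 1 of 17 RAS regulators was lower in the knockout (DAB2IP, a RAS GTPase-activating protein, -0.48) and 0 of 12 cascade genes passed. Of 14 other feedback inhibitors, 1 was higher (DUSP3, 0.38). Of 24 ERK target genes, 3 were higher (KLF6 0.61, HMGA2 0.43 and CCND1 0.38) and 2 lower (FOS -1.02 and EGR1 -0.56), all as log2 differences. Over all genes 8.68% passed in either direction.

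After IR in control cells, SHC1, an adaptor that links receptors to RAS (0.67), DUSP16, a phosphatase of JNK and p38 (0.80), and FOS (0.83) rose. FOSL1 (-0.65), IER2 (-0.88), KLF6 (-0.85) and HBEGF, an EGF receptor ligand (-1.05), fell. That was 1 of 17 regulators, 0 of 12 cascade genes, 1 of 14 other feedback inhibitors and 5 of 24 targets, beside 5.72% of all genes in either direction.

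In knockout cells SHC1 (0.80), DUSP16 (0.76), ERRFI1 (0.93), FOS (1.22), MYC (0.77) and EPHA4 (1.92, from under 1 CPM) rose after IR. FOSL1 (-0.58), IER2 (-0.74) and KLF6 (-0.68) fell. The counts were 1 of 17 regulators, 0 of 12 cascade genes, 2 of 13 other feedback inhibitors and 6 of 23 targets, beside 5.67% of all genes.

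On average over both genotypes, 4 of 17 RAS regulators rose after IR and none fell (SHC1 0.75, SOS2 0.62, PTPN11 0.56 and MRAS 0.35). Of 12 cascade genes 4 rose and none fell, among them IQGAP1 (0.59), LAMTOR3 (0.52) and MAP2K1 (0.44). Of 14 other feedback inhibitors 7 rose and none fell, among them DUSP16 (0.79), DUSP14 (0.63), CBL (0.71), ERRFI1 (0.71), IL17RD (0.64) and LRIG1 (0.59). These shares stand beside the 14.9% of all genes that rose. With upper-quartile scaling, with the DESeq2 test or without a filter, 1 regulator and 1 cascade gene fell. With DESeq2 size factors or 10 counts required in every library 1 regulator did, and with length and GC trends removed 1 cascade gene. Without a filter 1 of the other feedback inhibitors fell too.

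With length and GC trends removed, an alternative chosen after seeing the data, 2 of 17 regulators, 4 of 12 cascade genes and 5 of 14 other feedback inhibitors rose, beside 17.1% of all genes, and their medians were 0.18, 0.21 and 0.36. Leaving out 1 library moved the number that rose between 1 and 8 for the regulators, 1 and 5 for the cascade and 2 and 6 for the other feedback inhibitors (14 or 15 tested). Without irradiated control replicate B these were 1, 1 and 2, beside 7.51% of all genes, and they were also 1, 1 and 2 without irradiated knockout replicate B (5.15%), untreated control replicate B (4.73%) or untreated knockout replicate B (4.07%).

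ERK target genes went both ways in that average, with 7 of 24 higher and 6 lower. Those with the smallest p-values were FOS (1.04), KLF6 (-0.75), IER2 (-0.80), FOSL1 (-0.60), MYC (0.63) and HBEGF (-0.83). The median log2 change was 0.27 for the 10 feedback genes, 0.52 for the other feedback inhibitors, 0.36 for the cascade and 0.35 for the regulators. It was 0.04 for the targets and 0.0080 for all genes. Upper-quartile scaling lowered the medians of all genes and of the 4 lists. They became -0.01 for the targets, -0.045 for all genes, 0.47 for the other feedback inhibitors, 0.30 for the cascade and 0.29 for the regulators.

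Among the ligands that feed the pathway, HBEGF had 17.2 and 22.8 CPM in untreated and 8.48 and 10.8 CPM in irradiated control cells. AREG, a more abundant EGF receptor ligand, changed by -0.44 on average after IR (adjusted p = 0.0197, edgeR). EREG, another EGF receptor ligand, had 156 and 132 CPM in untreated and 126 and 250.2 CPM in irradiated control cells, and 167 and 147 CPM in untreated and 201 and 329 CPM in irradiated knockout cells. Its average log2 change of 0.57 (95% interval 0.11 to 1.03) did not pass (adjusted p = 0.0641, edgeR).

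The targeted gene and the cell type were checked in the same libraries. RBM6 mRNA had 66.9 and 68.8 CPM in untreated control cells and 61.5 and 63.2 CPM in untreated knockout cells (log2 fold change -0.14, adjusted p = 0.712, edgeR), so that gene-level counts do not show the knockout. After IR the log2 difference was -0.40 (adjusted p = 0.535, edgeR). The paper checked the knockout by other means: DNA sequencing, which showed a frame-shift with an early stop codon, and a western blot for RBM6 protein. The 8 markers of basal breast epithelium summed to 2680 to 3725 CPM. In untreated control cells KRT5 and KRT6A averaged 1161 and 1013 CPM, but TP63 and CDH1 only 18.9 and 19.2 CPM. The 12 markers of other cell types summed to 22.3 to 36.6 CPM, of which 8 were under 1 CPM in every library and CD3E was at 0 in all. GATA3, a marker of luminal cells among these 12, had 11.4 to 17.5 CPM, close to TP63 and CDH1 in untreated control cells. Of the 8 epithelial markers in untreated cells, 1 was lower in the knockout (EPCAM, -1.79, adjusted p = 4.43e-05, edgeR) and 1 higher (KRT14, 0.78, adjusted p = 0.0156, edgeR). After IR, EPCAM was lower by -1.82 (adjusted p = 0.0151, edgeR) and KRT14 differed by 0.75 (adjusted p = 0.116, edgeR).

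Of the 12 markers of other cell types, 4 were tested, and 2 passed in the genotype average. PECAM1, an endothelial marker, had 1.78, 2.36, 1.62 and 1.13 CPM in the 4 control libraries and 3.15, 6.33, 3.77 and 4.11 CPM in the 4 knockout libraries (1.37, adjusted p = 0.00863, edgeR). COL1A1, a collagen gene of fibroblasts, had 11.5, 14.4, 11.6 and 12.1 CPM in the control and 9.23, 6.33, 5.06 and 5.44 CPM in the knockout libraries (-0.95, adjusted p = 0.0045, edgeR). The part of these markers in the differences of DUSP5 and SPRY4 was not tested.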

How the data were processed

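Poly(A) RNA of 8 libraries was sequenced as paired-end reads. The authors aligned the reads to hg38 (the submitters' processing notes name STAR and DESeq2) and deposited whole-number counts per Ensembl gene without normalization. The counting tool, its annotation and the use of strand are not given in the sources used here. Counts were analysed with edgeR 4.0.16 in R 4.3.3: TMM scaling, filterByExpr, and the quasi-likelihood test on the whole table, each comparison on its own libraries, with Benjamini-Hochberg adjustment over all genes tested. A call needed an adjusted p under 0.05 and a 2-fold change, and calls by the adjusted p alone are given beside it. The averages and the interaction used all 8 libraries. The SE was the log2 fold change divided by the square root of F. CPM were scaled over all 8 libraries.

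The members and the pathway lists were chosen with earlier results of these data known. All 10 members were named throughout, and of each list the genes past the adjusted p, or the 6 with the smallest p where more passed, and some genes of this selection are not reported here. Alternatives were DESeq2 size factors, upper-quartile scaling, DESeq2 1.42.0, no filter, at least 10 counts in every library, a replicate block, a common fit of all 8 libraries, and leaving out each library in turn. The tests were tested on simulated counts, where 100 genes were given a 2-fold change. By the adjusted p alone, 19 of them passed for the interaction, 62 for the genotypes after IR and 64 for IR in control cells. In the remaining comparisons 82 to 97 passed. Library totals of 15355281 to 29832009 counts put the limit that a count of 0 allows at 0.101 to 0.195 CPM, for counting error only. The p-values weigh a difference against a spread estimated from the 2 biological replicates per group and across genes. They do not cover the spread between clones, as RBM6-KO1 is 1 clone.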

Additional observations from a re-analysis of the deposited data

How the results depend on the processing

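DUSP5 in untreated cells, DUSP5 and SPRY4 in the genotype average and DUSP1 in the IR average passed under every alternative run. Over all 950 refits of single genes, 838 kept direction and side of the threshold, 65 newly passed, 17 no longer passed and 30 changed sign, the last with 0 calls. Counts of passing genes among the 10 by the adjusted p alone were 2 in untreated cells, 1 for IR in either genotype, 2 in the genotype average and 3 in the IR average, against 0 with the 2-fold rule. For the genotypes after IR the count of 0 (1.21% of all genes) became 2 with DESeq2 (1.28%) or without a filter (2.36%). It was also 2 with all 8 libraries in 1 fit (2.88%). With length and GC trends removed, an alternative chosen after seeing the data, it was 3 (3.65%). Shares with DESeq2 and without a filter are over every gene with a count, 30123 here. For IR in control cells the count of 1 (5.72% of all genes) became 0 with upper-quartile scaling (8.83%) or the 10-count filter (5.04%). With trends removed it was 2 (15.5%). In knockout cells the count of 1 (5.67%) became 4 without a filter (9.40%) and 2 with trends removed (11.1%). The genotype average went from 2 to 4 and 5, and the IR average from 3 to 5 and 5, without a filter and with trends removed. The causes were not tested.

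The replicate letters pair nothing stated in the labels. The correlation of same-letter deviations was 0.08 and 0.35 between genotypes (untreated, irradiated) and -0.18 and -0.26 across IR (control, knockout). With the replicate block the counts were 3 in untreated cells (8.75% of all genes), 6 after IR (15.5%, against 1.21% without the block), 0 for IR in control cells (5.80%) and 2 in the IR average (20.1%), where HRAS was lost (adjusted p = 0.0597, edgeR). Pairing A with B across IR, chosen after seeing the data, gave 3 in control (25.8% of all genes) and 8 in knockout cells (44.4%).

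Signs changed for HRAS after IR (0.070) and in the genotype average (0.024), DUSP4 for IR in knockout cells (-0.16) and DUSP6 in the IR average (-0.075) with trends removed, for DUSP4 with upper-quartile scaling (-0.025), and for DUSP6 for IR in control cells without a filter (0.00039).

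Leaving out 1 library left 1 library in a group. The number of feedback genes that passed then rose in some fits and fell in others, largely together with the share of all genes that passed. These counts therefore say little about the feedback genes in particular and are not listed. Log2 differences are given instead, as ranges over the fits that left out 1 library. Ranges that crossed 0 were, for untreated genotypes, DUSP4 -0.0015 to 0.066, SPRY2 -0.11 to 0.65, SPRED1 -0.13 to 0.64 and SPRED2 -0.57 to 0.018; after IR, HRAS -0.33 to 0.13 and SPRED1 -0.091 to 0.71; for IR in control cells, SPRY2 -0.30 to 0.12; and for the interaction, HRAS -0.18 to 0.29, SPRY4 -0.14 to 0.35, SPRED1 -0.33 to 0.52, SPRED2 -0.22 to 0.36 and ETV5 -0.28 to 0.087. A group left with 1 library was assumed to vary like the others.

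Over all genes, the 2-fold count ranged from 350 to 658 for untreated genotypes, 71 to 541 after IR, 287 to 1406 for IR in control and 289 to 1563 in knockout cells, 320 to 744 in the genotype average and 568 to 1535 in the IR average. The largest shift of the median of all genes by another scaling was -0.053 (upper quartile, IR average). The lowest value among the 10 genes was 243 counts.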

Other observations

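SPRY4-AS1, a non-coding RNA gene on the strand opposite SPRY4 with no shared exon, was chosen after its values were seen. It had 2.52, 3.70, 3.43 and 2.54 CPM in the 4 control libraries and 6.64, 5.71, 5.42 and 5.34 CPM in the 4 RBM6-KO1 libraries, which did not overlap. The average log2 difference between genotypes was 0.93 ± 0.19 (SE; adjusted p = 0.0127, edgeR). In the separate comparisons it did not pass, at 0.97 in untreated cells (adjusted p = 0.0583, edgeR) and 0.88 after IR (adjusted p = 0.255, edgeR). Without strand, reads of the 2 genes cannot be told apart in the introns of SPRY4, and the use of strand in counting is not given in the sources used here.

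The genes whose pattern over the 8 libraries was most like that of SPRY4, by the root mean square difference of centred log2 CPM among 16548 genes, were SH3BP4 (0.0895), KCND1 (0.0990), PPFIBP2 (0.102), IL18R1 (0.109) and SH2B3 (0.114). For DUSP6 they were BRSK1 (0.0486), IFNGR2 (0.0603), SYVN1 (0.0673), HYAL2 (0.0678) and CTNNA1 (0.0706).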
